A study of Homo sapiens with 6 samples.

Results

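The TRAIL ligand, its receptors, the related receptor FAS and the genes that carry their signal to apoptosis or necroptosis were read in sorted COLO-320DM cells, a human colorectal cancer cell line. The members were 10 genes named by symbol, and every probe set to which the platform annotation gave 1 of those symbols alone was taken, dim ones included. This gave 26 probe sets of 9 genes, out of 54613 probe sets on the arrays other than controls. RIPK1 was the remaining gene: no probe set carried its symbol in the annotation table used here, so it was not analysed here. The genes were selected on their log2 differences between the sorts, which were already known, so every value for CD44-positive against CD44-negative below describes them and is no test.

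The 6 arrays came from untreated cells sorted into CD44-positive cells (arrays 01, 02 and 03) and CD44-negative cells (arrays 01, 02 and 03), 3 arrays in each group, all from the same line grown in dishes. CD44, a receptor for hyaluronan, is often used to sort stem-like cells from colorectal tumours. Separate cultures are not stated in the labels, so the p-values below cover the spread of these arrays alone, and part of it may be technical. Levels are log2 RMA intensities and differences are CD44-positive minus CD44-negative on that scale. A gene or probe set is called dim where its mean over the 6 arrays lay under 5.12, the 30th percentile of the gene means.

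TRAIL, the product of TNFSF10, is a ligand of the TNF family that triggers apoptosis in many tumour cells. It binds 2 receptors with a death domain, TNFRSF10A (DR4) and TNFRSF10B (DR5), and 2 decoys that do not carry the death signal, TNFRSF10C (DcR1) and TNFRSF10D (DcR2). FAS is the death receptor for FAS ligand. Receptors of this kind recruit CASP8, an initiator caspase that starts apoptosis and also cleaves the kinases of necroptosis. Where caspase-8 is inactive, the kinase RIPK3 phosphorylates MLKL, which then permeabilises the plasma membrane. TNFSF10 and MLKL are known as interferon-inducible genes, and RIPK3 is silenced in many cancer cell lines.

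The sequences before the start sites of TNFSF10 and MLKL are shown because these were the members with the widest differences between the sorts. Each is the 250 bases before the RefSeq start, build GRCh38.p14, minus strand, 5′ to 3′. Both strands were searched for the interferon-response pair (GAAA, then any 2 bases, then GAAA) and for the shorter interferon-factor motif AANNGAAA, which is contained in the pair, and matches are in capitals.
TNFSF10, chr3:172523431-172523680: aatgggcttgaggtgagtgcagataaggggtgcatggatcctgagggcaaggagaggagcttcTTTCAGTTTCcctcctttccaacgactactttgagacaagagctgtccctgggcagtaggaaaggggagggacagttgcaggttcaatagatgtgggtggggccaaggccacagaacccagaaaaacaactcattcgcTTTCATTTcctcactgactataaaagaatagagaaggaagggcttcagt
MLKL, chr16:74700863-74701112: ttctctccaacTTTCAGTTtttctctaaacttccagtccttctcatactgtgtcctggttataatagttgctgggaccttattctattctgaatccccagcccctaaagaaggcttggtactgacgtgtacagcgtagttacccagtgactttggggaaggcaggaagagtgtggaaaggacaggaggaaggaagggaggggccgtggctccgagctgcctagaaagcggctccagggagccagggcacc
The TNFSF10 window held 1 pair, 187 bases before the start, and a further match to the shorter motif 49 bases before it. The MLKL window held no pair and 1 match to the shorter motif, 239 bases before the start. Of 35116 RefSeq windows of this length, 3.0% held the pair and 20.3% the shorter motif. None of the 3 FAS and 3 CASP8 windows held the pair, while 1 window of each gene held the shorter motif. The TRAIL receptor genes were left out of this search and RIPK3 had no window in the source used. FAS and CASP8 therefore do not stand for the remaining members. The other motifs searched were the GAS element TTCNNNGAA, the AP-1 site TGANTCA and the GC box GGGCGG, held by 6.6%, 6.6% and 42.6% of all windows. Neither the TNFSF10 nor the MLKL window held any of these 3. A match is only a run of letters and does not show that a factor binds there.

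TNFSF10 was higher in the CD44-positive cells on all 3 of its probe sets. On the brightest, 202687_s_at, the CD44-positive arrays 01, 02 and 03 stood at 5.77, 5.94 and 5.63, against 4.14, 4.48 and 4.56 in the CD44-negative arrays. The lowest CD44-positive array lay more than a log2 unit above the highest CD44-negative one. The means were 5.78 ± 0.15 and 4.39 ± 0.22 (SD, n = 3 each), a difference of 1.39 ± 0.14 (SE), or 2.61-fold.

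Probe set 202688_at gave 5.64, 5.48 and 5.14 in CD44-positive arrays 01, 02 and 03, against 3.67, 4.42 and 4.31 in the CD44-negative arrays. The groups were again apart, by a difference of 1.29 ± 0.21 (SE), or 2.45-fold. Probe set 214329_x_at, whose suffix marks possible cross-hybridisation, gave 4.72, 4.88 and 4.49 against 3.18, 3.90 and 4.10. Its groups did not overlap either, and its difference was 0.97 ± 0.22 (SE), or 1.96-fold. Array by array, CD44-negative array 01 had the lowest TNFSF10 level on all 3 probe sets, so the difference between same-numbered arrays was widest for number 01, at 1.63, 1.97 and 1.54, and narrowest for number 03, at 1.07, 0.84 and 0.40.

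MLKL, the executioner of necroptosis, had 1 probe set, 238025_at. It gave 5.35, 5.79 and 5.53 in CD44-positive arrays 01, 02 and 03, against 4.43, 4.79 and 4.41 in the CD44-negative arrays. Every CD44-positive array was above every CD44-negative array, and array 02 was the highest in both sorts. The means were 5.56 ± 0.22 and 4.55 ± 0.21 (SD, n = 3 each), a difference of 1.01 ± 0.15 (SE), or 2.02-fold. The same-numbered arrays differed by 0.92, 1.00 and 1.12.

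All 4 of these probe sets were dim over the 6 arrays, and the mean of the CD44-negative arrays was below the limit in each. The CD44-positive means of 202687_s_at, 202688_at and MLKL lay above it, and that of 214329_x_at, 4.70, below it. RMA compresses differences near the background, so the sizes are approximate. Because no TNFSF10 or MLKL probe set reached a mean of 5.12, both genes fall out of a fit that removes dim genes.

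**Figure D1:**
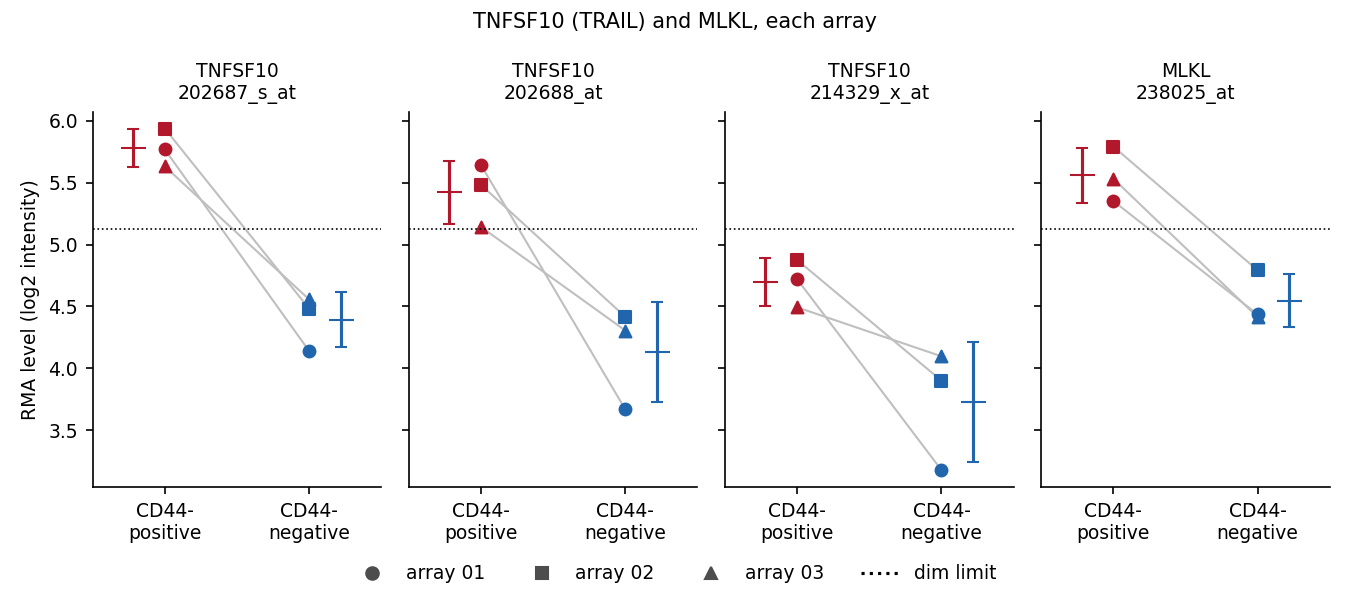
RMA levels (log2 intensity, y axis) of the 3 TNFSF10 probe sets and the MLKL probe set in CD44-positive and CD44-negative cells. Symbols are arrays, grey lines join arrays of the same number, bars are the mean ± SD of 3 arrays and the dotted line is the dim limit of 5.12; in each panel all CD44-positive arrays lie above all CD44-negative arrays.

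The receptors with a death domain for TRAIL were well above the dim limit and differed little between the sorts. TNFRSF10A had 3 probe sets, all above the limit, with differences of 0.09 for 231775_at, 0.01 for 1552648_a_at and 0.02 for 241371_at. On 231775_at, the brightest, the CD44-positive arrays stood at 8.71, 8.37 and 8.39, against 8.55, 8.29 and 8.36 in the CD44-negative arrays. The groups overlapped on all 3 probe sets, and array 01 was the highest of its sort on 231775_at in both groups.

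TNFRSF10B had 4 probe sets, 3 of them above the limit. On the brightest, 209295_at, the CD44-positive arrays gave 9.44, 9.23 and 9.46, against 9.20, 9.29 and 9.54 in the CD44-negative arrays, with overlapping groups and a difference of 0.04 ± 0.12 (SE). Probe set 209294_x_at gave 7.48, 7.52 and 7.43 against 7.36, 7.23 and 7.19. Here the groups did not overlap, and the difference was 0.21 ± 0.09 (SE). Its companion 210405_x_at had overlapping groups and a difference of 0.05. The fourth, 1556645_s_at, lay far under the limit, at 3.25 ± 0.23 against 3.45 ± 0.06 (SD, n = 3 each). Whether the probe sets of TNFRSF10B differ from each other was not tested.

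The decoy receptors overlapped on most probe sets. TNFRSF10D, a decoy with a truncated death domain, stood on 227345_at at 8.76, 8.47 and 8.52 in the CD44-positive arrays, against 8.73, 7.98 and 8.57 in the CD44-negative arrays. Its probe set 210654_at gave 6.82, 6.84 and 6.69 against 6.93, 6.27 and 6.68. CD44-negative array 02 was the lowest on both probe sets. The differences of 0.16 each turned to -0.07 and -0.02 without that array.

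TNFRSF10C, a decoy anchored to the membrane by a lipid tail, had 2 probe sets above the limit and 2 dim ones. The differences were 0.05 for 234644_x_at, -0.07 for 234195_at, 0.16 for 206222_at and 0.15 for 211163_s_at. That of 206222_at was 0.05 without CD44-positive array 01. Only 211163_s_at had groups apart, at 3.96 to 4.18 in the CD44-positive against 3.92 to 3.94 in the CD44-negative arrays, both dim. A further 2 probe sets, outside the rule because the annotation gave them TNFRSF10C together with LOC254896, differed by -0.10 and 0.04. The genes of these 4 TRAIL receptors lie together on chromosome 8, and the array's probe sets for such close relatives may share signal.

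FAS was close to the dim limit. On its brightest probe set, 204780_s_at, the CD44-positive arrays gave 5.81, 5.14 and 5.33, against 5.13, 4.70 and 5.04 in the CD44-negative arrays. The lowest CD44-positive array, 02, and the highest CD44-negative array, 01, were almost level, so the groups were only just apart. The means were 5.43 ± 0.34 and 4.96 ± 0.22 (SD, n = 3 each), a difference of 0.47 ± 0.18 (SE), or 1.39-fold, which was 0.28 without CD44-positive array 01. Of the 4 dim FAS probe sets, 204781_s_at, 216252_x_at and 215719_x_at differed by 0.32, 0.26 and 0.23, and 233820_at by -0.03. All 4 had overlapping groups. Without CD44-positive array 01 the difference of 216252_x_at was 0.10 and that of 215719_x_at 0.08, and without CD44-negative array 02 they were 0.13 and -0.03.

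CASP8, the initiator caspase, differed by 0.12, 0.15 and 0.09 on 213373_s_at, 207686_s_at and 1553306_at. On 213373_s_at the CD44-positive arrays gave 6.93, 6.75 and 7.04, against 6.68, 6.52 and 7.15 in the CD44-negative arrays, so the groups overlapped. Its difference ranged from -0.01 without CD44-negative array 02 to 0.30 without CD44-negative array 03. Probe set 207686_s_at gave 6.28, 6.35 and 6.58 against 6.26, 6.25 and 6.25. The 3 CD44-negative arrays were nearly identical there and CD44-positive array 03 stood out as the highest, and the difference of 0.15 was 0.06 without it and 0.21 without CD44-positive array 01. The dim 1553306_at gave 4.14 in each CD44-positive array and 3.95 to 4.10 in the CD44-negative arrays.

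RIPK3, the kinase that acts on MLKL, was the one gene whose groups were apart in the other direction. Its probe set 228139_at gave 5.74, 5.83 and 5.70 in the CD44-positive arrays, against 5.96, 6.01 and 5.84 in the CD44-negative arrays. The highest CD44-positive value was just under the lowest CD44-negative value. The means were 5.75 ± 0.06 and 5.93 ± 0.09 (SD, n = 3 each), a difference of -0.18 ± 0.09 (SE), or 1.13-fold lower, and the same-numbered arrays differed by -0.22, -0.18 and -0.14. MLKL was higher and RIPK3 lower in the CD44-positive array of each of the 3 pairs of same-numbered arrays. The RIPK3 difference is small and rests on 1 probe set. Over all probe sets, 3.32% had every CD44-positive array below every CD44-negative array. A link between the MLKL and RIPK3 differences was not tested.

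**Figure D2:**
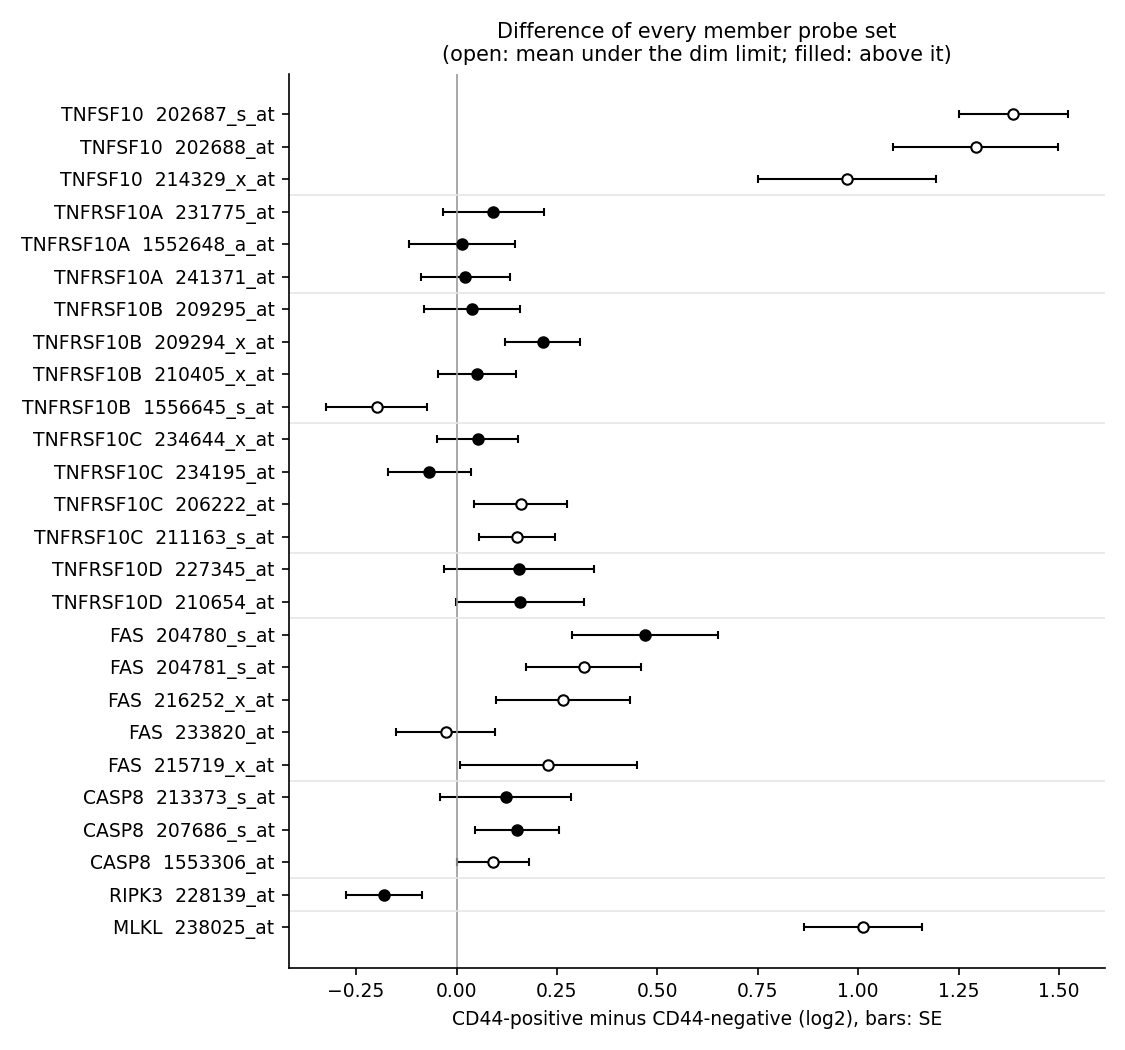
Difference between the sorts (CD44-positive minus CD44-negative, log2, x axis) of all 26 member probe sets, with limma's SE as bars. Open circles are probe sets whose mean lies under the dim limit and filled circles are those above it; the 3 TNFSF10 probe sets and MLKL lie between 0.97 and 1.39 and the others between -0.20 and 0.47.

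Of the 26 probe sets, 22 had a difference above 0, and the median was 0.15. Over all 54613 probe sets 49.8% were above 0 and the median was -0.00051. Every CD44-positive array was above every CD44-negative array in 9 of the 26, against 3.41% of all probe sets, and below in 1, against 3.32%. All 3 pairs of same-numbered arrays gave a positive difference in 12 of the 26, against 13.5% of all probe sets. A level at least 2-fold higher was seen in 3 of the 26 (2 of TNFSF10 and that of MLKL), against 0.0769% of all probe sets. Of the 26 probe sets, 14 were above the dim limit and 12 below. In a limma fit over all probe sets, 202687_s_at of TNFSF10 was the 1 member among 5 probe sets past an adjusted p of 0.05 (0.00916% of all), the other 4 being CD44. With the replicate number as a block, 202687_s_at and the MLKL probe set were the 2 members among 28 called (0.0513%). Since the genes were chosen with this comparison known, nothing is read from these counts. The call without the block was lost with quantile normalization, with a variance trend and whichever array was left out.

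CD44, the sorted marker, averaged 7.70 ± 0.52 in CD44-positive cells, against 5.23 ± 0.22 in CD44-negative cells (SD, n = 3 each). Of the colorectal markers CDX2, KRT8, KRT18, KRT20, CDH17, VIL1 and AXIN2 were above the dim limit and EPCAM and CDH1 under it. Of the 7 above it, 3 were higher in CD44-positive cells and 4 lower, with a median difference of -0.04. CDX2, KRT8, KRT18 and AXIN2 differed by -0.08, -0.04, -0.10 and -0.04, and CDH17 and VIL1 by 0.29 and 0.02. KRT20 was higher by 0.63, at 6.67 to 7.23 in CD44-positive against 6.10 to 6.60 in CD44-negative arrays, and EPCAM was lower, at 4.08 to 4.63 against 4.74 to 4.98, neither with overlap. Of 7 neuroendocrine markers 4 were dim and the other 3 had a difference above 0, with a median of 0.17. Of the dim ones CHGB differed by 0.17, and CHGA, SCG2 and INSM1 by -0.02, -0.09 and -0.07. SYP was apart, at 5.53 to 5.59 in CD44-positive against 5.31 to 5.47 in CD44-negative arrays, while the list's mean level overlapped, at 4.30 to 4.71 against 4.19 to 4.64. Leukocytes, which express TRAIL, had 6 of 11 markers dim, including CD2, NKG7 and KLRD1, and 5 above the limit, PTPRC, CD79A, CD3E, ITGAM and GNLY. Of these GNLY was higher without overlap, at 5.50 to 5.56 in CD44-positive against 5.25 to 5.43 in CD44-negative arrays. CD3E differed by 0.05, while PTPRC, CD79A and ITGAM were lower, by -0.08, -0.03 and -0.14. The mean level of the whole leukocyte list was 5.13 to 5.18 in CD44-positive arrays, overlapping the 5.12 to 5.20 of CD44-negative arrays. Fibroblast markers had a mean level of 6.04 to 6.34 in the CD44-positive against 5.81 to 5.89 in the CD44-negative arrays, without overlap, and 6 of 9 tested markers were higher. Among the collagens, COL1A2 was at 5.40 against 5.09 without overlap and COL3A1 at 11.09 against 10.31 with overlap. COL1A1 was lower, at 7.65 against 7.88, also without overlap. LUM, which is dim, was at 4.55 against 2.53 without overlap, the widest difference of the list, whose mean level includes dim markers. S100A4 and ACTA2 were higher by 0.71 and 0.44 with overlap. THY1 and TAGLN differed by 0.05 and 0.07, and PDGFRB and DCN by -0.13 and -0.04. PDGFRA and FAP were dim too. The part of any of these markers in the TNFSF10 and MLKL differences was not tested. In bulk samples fewer cells with a transcript and less of it per cell cannot be told apart.

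Variation between replicate numbers was not used to choose the genes, so it was tested. Same-numbered arrays of both sorts deviated together, and the effect of the number was fitted with limma beside CD44 status. Among 13842 genes, 1430 (10.3%) passed an adjusted p of 0.05. Of the 7 member genes above the dim limit, 1 passed, FAS, and 4 had an unadjusted p under 0.05, against 32.4% of all genes. FAS entered this fit through its CD44-positive arrays, since its CD44-negative mean of 4.96 lay below the limit. FAS averaged 5.47, 4.92 and 5.19 over both sorts for numbers 01, 02 and 03, a range of 0.54 (F = 12.5, limma's adjusted p = 0.0457). In both sorts array 02 had the lowest FAS level and array 01 the highest. The adjusted p of FAS missed the threshold without CD44-positive array 01 (0.102) or 02 (0.120), without CD44-negative array 02 (0.106) and with dim genes tested too (0.0792). With the number fitted over every probe set, no FAS probe set passed, and limma's lowest adjusted p was 0.0803, that of 204780_s_at. The number of member genes that passed ranged from 0 to 4 over the alternatives, with 4 under a variance trend, 3 without CD44-positive array 03, and 2 with quantile normalization, with array weights or without CD44-negative array 03.

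TNFRSF10D followed the same order, at 8.74, 8.22 and 8.55 for numbers 01, 02 and 03, without passing (limma's adjusted p = 0.0870). CASP8 was at 6.81, 6.64 and 7.09 (adjusted p = 0.0693 by limma) and TNFRSF10A at 8.63, 8.33 and 8.37 (0.0861), which did not pass either. RIPK3, TNFRSF10B and TNFRSF10C had adjusted p values of 0.407, 0.262 and 0.424.

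**Figure D3:**
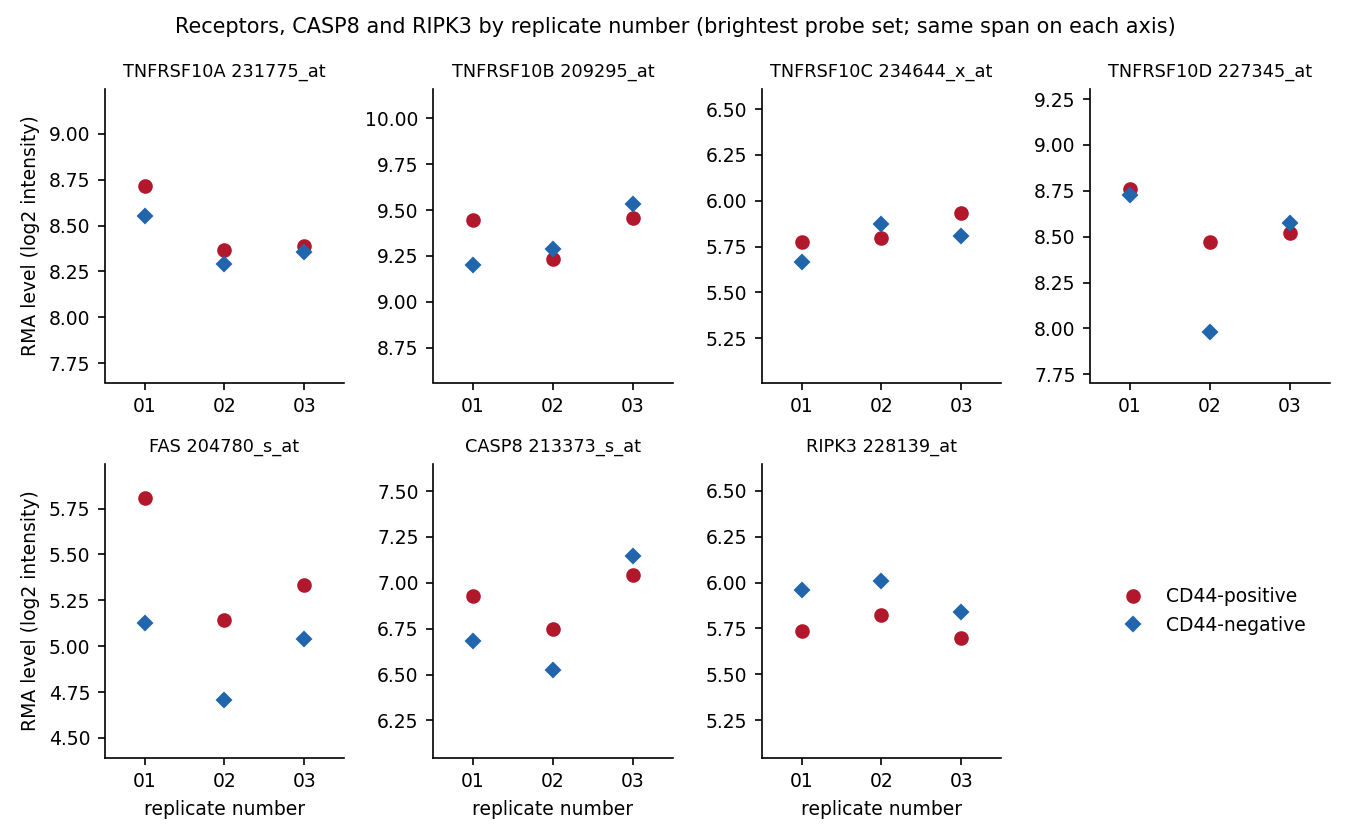
RMA levels (log2 intensity, y axis) of the brightest probe set of the 7 member genes above the dim limit, by replicate number (x axis), with CD44-positive arrays as circles and CD44-negative arrays as diamonds. Each panel spans the same range; FAS and TNFRSF10D are lowest for number 02 in both sorts, and RIPK3 is lower in the CD44-positive cells for every number.

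The genes whose levels over the 6 arrays were most like those of TNFSF10 (202687_s_at) were found by the root mean square difference of mean-centred log2 levels. The nearest of the 13842 genes were CNR1, a cannabinoid receptor gene, at 0.32, the elongation factor TCEA3 at 0.32, the phospholipase PLAAT3 at 0.33, the interferon-inducible nucleotide kinase CMPK2 at 0.35 and the developmental factor HOXC9 at 0.35. CMPK2 entered this ranking through its CD44-positive arrays, since its CD44-negative mean of 4.83 lay below the dim limit. The median over all genes was 0.72. MLKL, which is not among those genes because it is dim, was at 0.26. It was selected on its difference between the sorts, and dim genes outside the members were not ranked. Nothing is therefore read from its place beside these 5. The other TNFSF10 probe sets were at 0.17 and 0.26, FAS (204780_s_at) at 0.56 and every other member probe set at 0.58 or more. The measure includes the difference between the sorts, and the 6 points share 2 sorts and 3 numbers, so it describes likeness only.

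**Figure D4:**
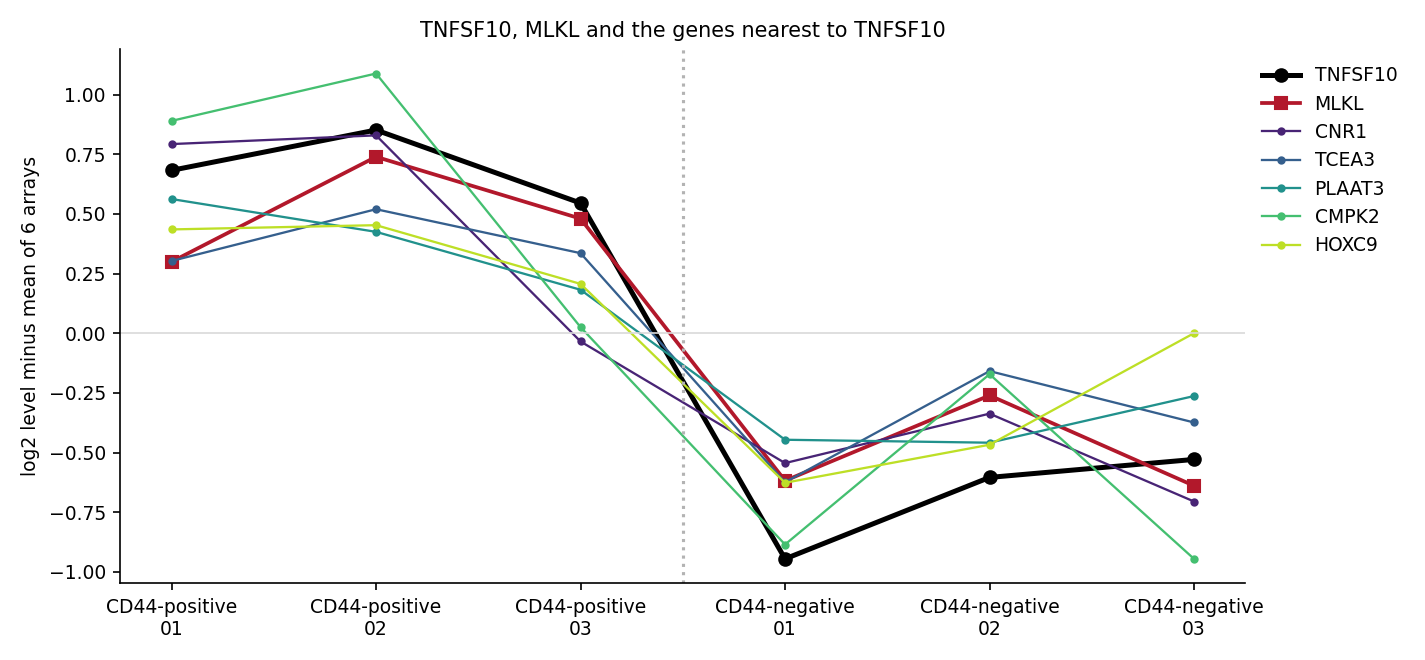
Log2 level minus the mean of the 6 arrays (y axis) for TNFSF10, MLKL and the 5 genes nearest to TNFSF10, over the CD44-positive and then the CD44-negative arrays (x axis). TNFSF10 and MLKL are above 0 in all CD44-positive arrays and below 0 in all CD44-negative arrays, while CNR1 is already slightly below 0 in CD44-positive array 03.

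The other genes of these pathways, in 8 lists with 108 genes on the arrays, gave no call. Of the 91 above the dim limit, 44 had a difference above 0 and 47 below, with a median of -0.0026; over all 13842 genes 48.9% were above 0 and the median was -0.0025. None passed limma's test, with or without the replicate block, where 0 of all genes (0%) and 8 (0.0578%) passed; 3 of the 91 had an unadjusted p under 0.05 without the block, against 1.97% of all genes. The smallest adjusted p among them was 0.318, with the block.

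None of the partners of the death receptors inside the cell passed the test. Of 11 adaptors and effector caspases 3 were higher, and the widest differences were those of APAF1, the apoptosome scaffold, at -0.19 ± 0.21 (SE), CASP10, a relative of CASP8, at -0.15 ± 0.11, and CFLAR, the inhibitor of CASP8 activation, at 0.10 ± 0.14. Of 19 genes of the ubiquitin and survival complex at the receptors 12 were higher, with TAB3, an adaptor of the kinase TAK1, at -0.24 ± 0.16, the death domain adaptor TRADD at 0.11 ± 0.10 and TRAF5 at 0.09 ± 0.27. Other necroptosis genes had 8 of 14 higher, with TLR3, a receptor for double-stranded RNA, at 0.26 ± 0.16, the ubiquitin ligase PELI1 at -0.18 ± 0.14 and CHMP2A, a membrane repair protein, at -0.14 ± 0.12.

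The wider TNF family differed little. Of 12 other ligands 10 were dim, and LTB and LTA, the lymphotoxin genes, differed by -0.07 and 0.01. Of 11 other receptors 2 were higher. TNFRSF12A, the receptor for TWEAK, stood at 6.66, 6.82 and 6.65 in the CD44-positive arrays, against 6.42, 6.56 and 6.34 in the CD44-negative arrays, which did not overlap, with a difference of 0.27 ± 0.10 (SE, limma's adjusted p = 1.00). TNFRSF21, known as DR6, was at -0.24 ± 0.14 and TNFRSF19 at -0.16 ± 0.13.

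Among 13 interferon signalling factors 5 were higher. IRF1, a transcription factor that interferon induces, stood at 6.48, 6.50 and 6.47 in the CD44-positive arrays, against 6.02, 6.34 and 6.07 in the CD44-negative arrays. These groups did not overlap, with a difference of 0.34 ± 0.10 (SE, limma's adjusted p = 1.00 without and 0.318 with the block). This is its brightest probe set, and with the mean of its probe sets the IRF1 difference was 0.11. The kinase gene JAK1, at 0.30 ± 0.12, had groups apart too, while JAK2 was at -0.10 ± 0.15. Among 12 targets of p53, the regulator that acts on FAS and TNFRSF10B, 7 were higher, with SESN2 at -0.25 ± 0.12, ZMAT3 at 0.17 ± 0.30 and TP53I3 at 0.14 ± 0.09. The BCL2 family had 6 of 9 higher, with BAD at 0.12, BCL2L1 at 0.09 and BCL2 at -0.08.

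**Figure D5:**
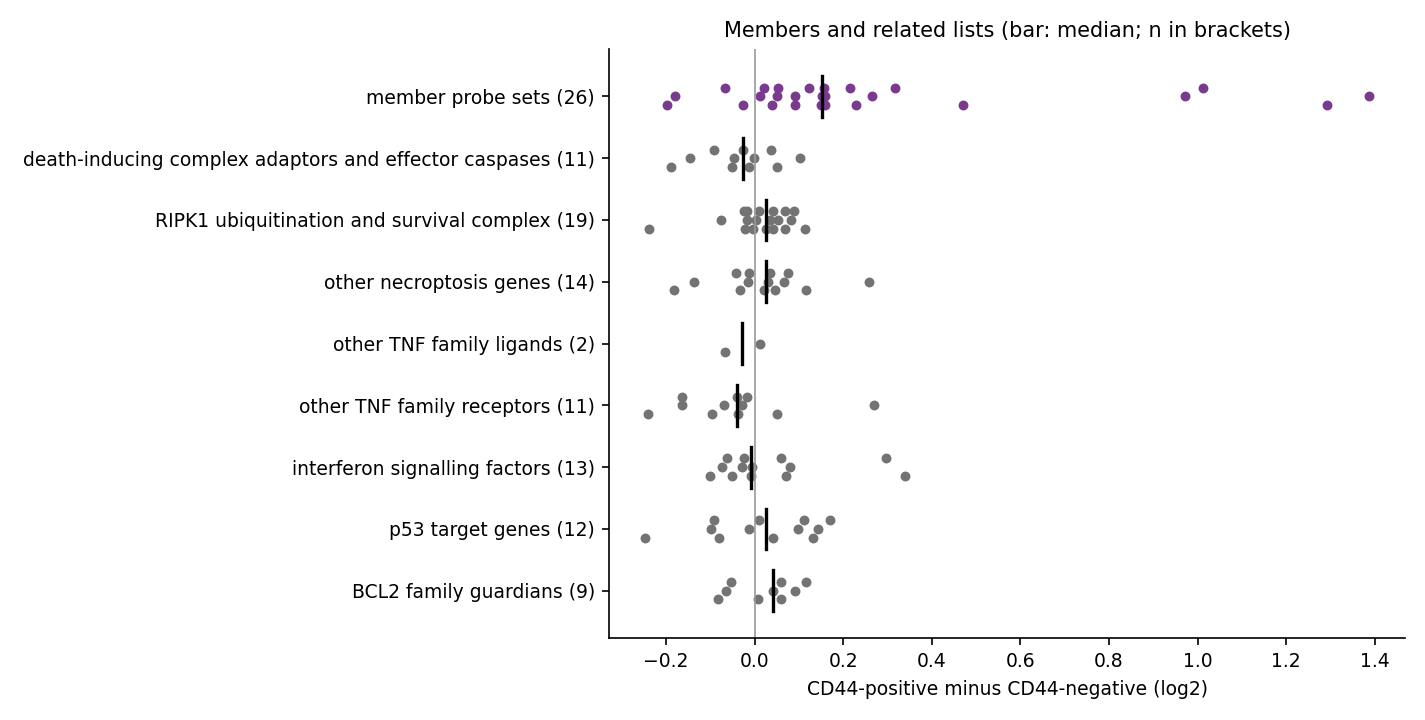
Differences between the sorts (CD44-positive minus CD44-negative, log2, x axis) of the 26 member probe sets and of the tested genes of 8 related lists, with the number of points in brackets and the median as a bar. TNFSF10 and MLKL probe sets form the points near and above 1 in the top row, while the listed genes lie between -0.25 and 0.34.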

How the data were processed

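Per the labels' protocols, RNA from the sorts was labelled with biotin and read on Affymetrix arrays. The deposited values are linear intensities that the authors made with RMA, a method that removes background, quantile-normalizes and summarises probes, per the submitters' processing notes; its version and settings are not given in the sources used here. Because the planned tests were for log2 values, log2 was taken, with no pseudocount. No array was left out.

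In the annotation 41097 probe sets had 1 gene symbol, 1801 had several and 11721 had none; 41043 of the first were matched through RefSeq gene IDs. Promoter windows are RefSeq's. Differences came from limma 3.58.1 under R 4.3.3 (lmFit, then eBayes), with two-sided p-values adjusted by Benjamini-Hochberg and called under 0.05, in a fit over every probe set. A second fit, for lists and replicate numbers, took the brightest probe set of each gene and left out dim genes, keeping 13842 of 19775. This second fit was tested on simulated data, and the fit over every probe set was not. Tables and figures used Python 3.11.15, pandas 2.3.3 and matplotlib 3.10.9.

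Both sorts carry the numbers 01, 02 and 03, and no label states a shared day. After subtracting each sort's mean, same-numbered arrays correlated over genes at 0.465, 0.689 and 0.626, so the numbers pair the arrays by this check. Values and calls in the text are from the fit without the number as a block, except where the block is named. The SEs printed therefore include variation between the numbers. With the block the SE of every member probe set was smaller, for example 0.114 for 202687_s_at, 0.085 for MLKL, 0.097 for 204780_s_at of FAS and 0.081 for RIPK3.

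The members and lists were chosen with earlier results of these data known. All member probe sets are named, and in each list the 3 tested genes with the widest difference. Likeness to TNFSF10 names the 5 nearest genes. Array number limits the precision of every value. Alternatives were the block, median centring, quantile normalization, a variance trend, array weights, other dim limits, other choices of probe set and leaving out arrays.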

Additional observations from a re-analysis of the deposited data

How the results depend on the processing

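Under 14 alternatives, 15 of the 26 member probe sets kept the sign of their difference, among them all of TNFSF10, with 202687_s_at between 1.26 and 1.54, MLKL between 0.90 and 1.13, and RIPK3 between -0.23 and -0.14. Not all alternatives could change a sign. The replicate block over all arrays and the variance trend leave each difference as it was, and median centring moved all by the same small amount. The median difference of the members, 0.15, was 0.069 to 0.18 without single arrays, lowest without CD44-negative array 02, 0.104 with the replicate block and without number 02, and 0.090 with the suffixed _s_at and _x_at probe sets left out. With the replicate block 8 genes passed in place of 0 and 28 probe sets in place of 5. That block without numbers 01, 02 and 03 gave 10, 63 and 127 genes, and 25, 87 and 85 probe sets. Without single arrays the fit with no block called 0 to 1 genes and 0 to 10 probe sets. The gene count was 1 with array weights, 2 with dim genes tested and 1 without suffixed probe sets, and the probe set count was 0 with a variance trend and 1 above the dim limit. Members among the called probe sets numbered from 0 to 4. For replicate numbers 1430 genes passed, 3149 with a variance trend, 745 with dim genes tested, 932 without suffixed probe sets and 733 to 2236 without single arrays. Of the listed genes, none of which passed in the fit reported, CFLAR (-0.029), TRAF5 (-0.093) and LTA (-0.034) changed sign with array weights, and TRADD with the mean of probe sets (-0.026) and without suffixed ones (-0.035). In the blocked fits LTA (-0.039) and BCL2 (0.0060) did so without number 01, and APAF1 (0.092) and JAK2 (0.037) without number 03. Without single arrays the ranges that cross 0 were -0.016 to 0.23 for CFLAR, -0.19 to 0.34 for TRAF5, -0.045 to 0.061 for LTA, -0.00060 to 0.19 for BAD, -0.17 to 0.017 for LTB and -0.13 to 0.44 for ZMAT3. The causes were not tested. Near the background RMA compresses differences, which limits the sizes for TNFSF10, MLKL and FAS.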
